A study of Sus scrofa with 28 samples.

Results

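The 9 genes followed here encode transcription factors that set up and maintain hepatocyte identity, and their open chromatin was read in pig liver: HNF4A, FOXA1, FOXA2, FOXA3, CEBPA, CEBPB, ONECUT1, PROX1 and NR5A2. They were chosen by name, and a peak was assigned to a gene when its centre lay inside the gene or within 1000 bp of either annotated end in the RefSeq annotation of build Sscrofa11.1. All 9 matched a gene, out of 19484 annotated protein-coding genes on chromosomes with peaks. Together they held 80 of the 84192 deposited peaks, at 30 separate sites. The libraries were made by ATAC-seq, in which a transposase inserts adapters into accessible DNA, from liver of female Zlotnicka White pigs of 180 days that were fed and housed alike and slaughtered near 100 kg. Tissue was digested to cells and frozen before the libraries were prepared. There were 28 libraries in 4 groups of 7, which combine high or low fat content with a label of 200 or 600. The labels do not explain these numbers, state the fat value behind a group or name the animals, so p-values measure the spread between libraries. The fat group stands in a label field named shear force, which does not say in which tissue fat was measured.

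The hepatocyte programme rests on a small network of such factors that bind their own and each other's genes. The FOXA proteins are pioneer factors that can bind compacted chromatin, and HNF4A is a nuclear receptor needed for most hepatocyte metabolic genes. ONECUT1 (HNF-6) acts from the earliest liver bud, PROX1 is a homeobox factor of hepatoblasts and adult hepatocytes, NR5A2 (LRH-1) is a nuclear receptor of bile acid synthesis, and the C/EBP proteins CEBPA and CEBPB govern metabolic and acute-phase genes.

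Libraries differed widely in yield, and this touches every result below. The number of peaks per library ran from 39 to 17652 and the share of protein-coding genes with a listed peak from 0.0205% to 48.2%. Depth is unknown, so an unlisted gene may be closed or only too thinly sequenced, and in bulk tissue fewer open cells and less opening per cell cannot be told apart. Hepatocyte markers were listed for 8 of 10 genes, with HPX in 12 libraries, TTR in 8 and ALB in 7, while ASGR1 and ASGR2 had no peak. Of markers of other cells, 0 of 5 cholangiocyte genes, 2 of 7 endothelial, 1 of 6 stellate, 3 of 11 macrophage, 3 of 9 lymphocyte and 2 of 6 erythroid genes had a peak in any library. Such a peak was found for 61.6% of all protein-coding genes and 68.9% of those with a symbol.

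All 9 factor genes were listed in at least 1 library, and 7 of them in at least 3. NR5A2 was listed in 10 of 28 libraries, FOXA1 and ONECUT1 in 9 each, HNF4A in 6, CEBPA and CEBPB in 4 each, PROX1 in 3, FOXA2 in 2 and FOXA3 in 1. Their median was 4 libraries, against 1 over all protein-coding genes, of which 61.6% were listed at all and 39% in at least 3 libraries. Among protein-coding genes with a symbol, the group from which the 9 come, these shares were 68.9% and 44.2% and the median was 2. An inclusion rule that counts the gene body gives long genes more room, and the 9 genes ranged from 1041 bp (CEBPB) to 139041 bp (NR5A2).

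Listing followed the yield of the library. High fat 200 replicates 1 and 7, with 48.2% and 40.3% of protein-coding genes listed, each held 8 of the 9 factor genes, all but FOXA3. High fat 600 replicate 7 held 6, low fat 200 replicate 1 held 5, and low fat 200 replicates 6 and 7, high fat 600 replicate 1 and low fat 600 replicates 1 and 7 held 3 each. Low fat 200 replicate 4 held HNF4A and CEBPB. The other 14 libraries held none, and in them the share of protein-coding genes listed was at most 4.41%. The remaining 4 libraries, high fat 200 replicates 3 and 4, high fat 600 replicate 3 and low fat 600 replicate 6, held 1 each, with 4.44% to 17.7% of protein-coding genes listed.

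**Figure D1:**
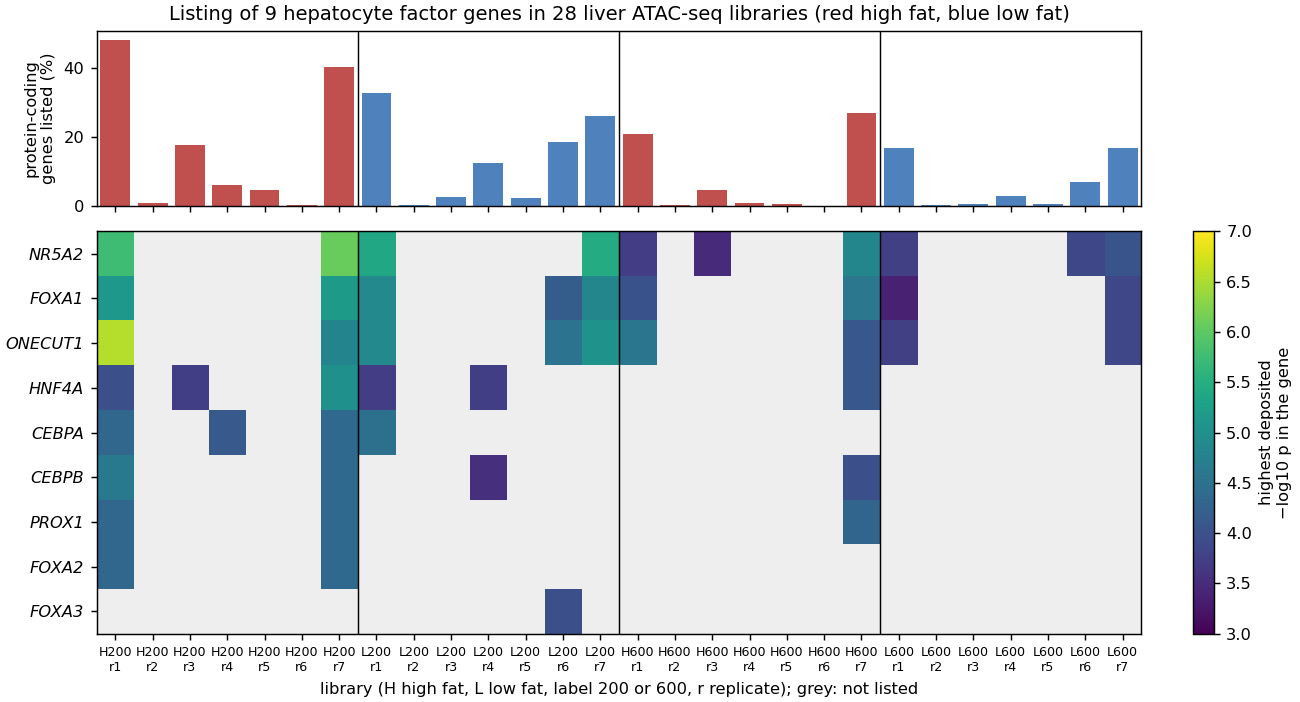
Upper panel, share of protein-coding genes with a listed peak (%) in each of 28 libraries. Lower panel, the highest deposited −log10 p of a peak assigned to each of the 9 genes, with grey for not listed; NR5A2, FOXA1 and ONECUT1 appear in all 4 groups, mostly in the libraries with tall bars, while FOXA2 and PROX1 are listed only in high fat replicates 1 and 7.

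High fat 200 replicate 3 departed from this order. It listed 17.7% of protein-coding genes from 6288 peaks, close to the 18.4% of low fat 200 replicate 6, but among the factors it listed only HNF4A, at a site found in no other library. High fat 200 replicate 4 likewise listed only CEBPA, at a site of its own. No site in the 9 genes was thus shared between these 2 libraries and any other.

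Among the FOXA genes, FOXA1 carried the recurrent sites. The gene lies on chromosome 7 from 62471233 to 62479638, and the reference table gives no strand, so its ends are called here the lower and the upper by coordinate. In the 200 libraries a peak lay across the lower end, between 62470866 and 62471779. Its deposited −log10 p was 5.13 and 5.18 in high fat replicates 1 and 7, and 4.69, 4.18 and 4.83 in replicates 1, 6 and 7 of low fat. The −log10 p is the peak caller's own significance at the strongest point of the peak and also carries the depth of the library. Within their libraries these peaks stood at percentiles 72.4 and 67.7 in high fat against 54.4, 43.8 and 55.4 in low fat libraries, in the same order. The −log10 p of the listed high and low fat libraries did not overlap, as in 49.6% of all regions that these 5 libraries listed.

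A second, stronger peak lay beside it, just outside the 1000 bp rule. It covered 62469846 to 62470408, separated from the first by 457 bp, with its centre 1024 to 1110 bp below the lower end. The same 5 libraries of the 200 set listed it, with a −log10 p of 7.29, 5.94, 5.06, 4.83 and 5.46 in the same order, each above that of its neighbour across the gene end. In the 600 libraries the pair looked different. High fat replicate 7 (2546 bp wide, −log10 p 4.58) and low fat replicate 7 (2153 bp, 3.85) had 1 broad peak over both sites. High fat replicate 1 (953 bp, 3.72) and low fat replicate 1 (837 bp, 3.37) had a peak over the outer site only, whose centres of 970 and 980 bp fell just inside the rule. Because the broad peaks overlap both sites, overlap chaining joined them into 1 region, which the region tests below count once. Summits of its peaks inside the rule spread over 1264 bp, more than in 97.1% of the 560 regions listed in 9 libraries.

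A further FOXA1 site lay inside the gene, from 62473460 to 62475690, and was listed in 7 libraries. Its −log10 p was 4.32 and 5 in the high fat 200 libraries (replicates 1 and 7) against 4.88 and 4.44 in the low fat ones (same numbers), so high and low fat values overlapped. In the 600 set it was 4 and 4.49 in high fat replicates 1 and 7 and 3.53 in low fat replicate 7. How often all regions of the 600 set show such an order was not computed. Summits at this site spread over 583 bp, more than in 90.4% of the 688 regions listed in 7 libraries. Low fat 200 replicate 1 alone had a peak near the upper end of the gene body, from 62477908 to 62478352 (−log10 p 4.48).

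FOXA2, which acts with FOXA1 in opening the liver programme, was listed only in the 2 libraries of highest yield. The gene spans 4308 bp on chromosome 17, from 29997397 to 30001704. High fat 200 replicate 1 had 3 adjacent peaks along its upper part, at −log10 p 4.32, 3.98 and 3.59, and high fat 200 replicate 7 had 1 peak across the upper end (30001045 to 30001876, −log10 p 4.37). No 600 or low fat library listed it. Among 1642 protein-coding genes in 2 libraries, 359 others were listed in exactly the same 2 as FOXA2.

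FOXA3, the remaining pioneer factor of the family, had no peak that could be called its own. Its single assigned peak, in low fat 200 replicate 6 (chromosome 6, 52180051 to 52180523, −log10 p 3.98), had its centre 808 bp below the lower end of FOXA3 and lay across the end, at 52180382, of SYMPK, a gene for a scaffold protein of RNA 3′ processing. The centre of the peak was inside SYMPK, 95 bp from that end. With a window of 500 bp no library listed FOXA3.

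HNF4A, the nuclear receptor at the centre of the network, was listed in 6 libraries without a single peak within 1000 bp of either end. The gene is annotated on chromosome 17 from 46783772 to 46847505, and HNF4A is known to be transcribed from alternative promoters, but transcript starts within the gene were not analysed here. Its 12 peaks fell on 7 sites between 23825 and 46397 bp from the lower end, and 4 of the sites came from 1 library each. The sites nearest the lower end, the first 4, also lie within a noncoding RNA gene, LOC102159476 (46768005 to 46816635), which overlaps HNF4A.

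The strongest HNF4A site was the one farthest along, at 46828874 to 46830169. It was listed in both libraries of high fat replicate 7, with a −log10 p of 5 in the 200 and 4.09 in the 600 library. Sites at 46812935 to 46813793 and at 46820439 to 46821393 recurred in 3 libraries each. The first had a −log10 p of 4.37 in high fat 200 replicate 7, 3.73 in low fat 200 replicate 1 and 3.48 in high fat 600 replicate 7. The second had 4.6 in high fat 200 replicate 7, 3.74 in low fat 200 replicate 4 and 3.33 in high fat 600 replicate 7. HNF4A peaks were weak for their libraries, with a median percentile of 24.1, against 46.6 over all 80 peaks of the 9 genes.

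NR5A2 had the most widely listed site of the 9 genes, at the lower end of the gene (chromosome 10, 22727865 to 22866905). Every one of the 10 libraries had a peak across that end, between 22726516 and 22728136. In the 200 set the −log10 p was 5.75 and 6.07 in replicates 1 and 7 of high fat, and 5.38 and 5.46 in the same numbers of low fat. In the 600 set it was 3.72, 3.47 and 4.84 in high fat replicates 1, 3 and 7 and 3.75, 3.86 and 4.04 in low fat replicates 1, 6 and 7. Both high fat 200 values lay above both low fat 200 values, as in 48.8% of regions listed in the same 4 libraries, and the 600 values of high and low fat overlapped. Of the 9 genes NR5A2 was the only one that high fat 600 replicate 3 and low fat 600 replicate 6 listed, and their 200 libraries of the same number did not list it.

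Summits at the end of NR5A2 lay outside the lower end, at −182 to −108 bp from it in the 4 libraries of the 200 set and at −396 to −157 bp in the 6 of the 600 set. Their whole range of 288 bp was near the median of 277 bp over the 456 regions listed in 10 libraries. Inside the gene a narrow site at 22739737 to 22740213 recurred in 3 libraries of the 200 set, with a −log10 p of 5 in high fat replicate 7, 4.01 in low fat replicate 1 and 3.99 in low fat replicate 7. The other 4 inside sites were found in high fat 200 replicate 1 or 7 alone.

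ONECUT1 held the strongest peak of the 9 genes, and it lay inside the gene rather than at its end. The gene is on chromosome 1 from 118913400 to 118958140. In each of its 9 libraries the strongest inside peak had its summit between 5064 and 5210 bp from the lower end, a range of 146 bp, and 8.04% of the 560 regions listed in 9 libraries had a smaller one. The −log10 p was 6.55 and 4.81 in high fat 200 replicates 1 and 7 and 4.88, 4.52 and 5.06 in low fat 200 replicates 1, 6 and 7, so that high fat replicate 1 stood above the rest and the groups overlapped. The 600 peaks there had 4.57 and 4.09 in high fat replicates 1 and 7, against 3.75 and 3.85 in low fat replicates 1 and 7. The share of all regions with such a gap in the 600 set was not computed. These high fat libraries had 4455 and 6453 peaks, against 3332 and 3775 in the low fat ones, and the part of yield was not tested.

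The lower end of ONECUT1 was covered less often. A peak across it (118912990 to 118913610) was listed in 3 libraries, with near-equal values of 4.62, 4.6 and 4.58 in high fat 200 replicates 1 and 7 and low fat 200 replicate 7. No 600 library had a peak across this end, although high fat 600 replicate 7 had a peak of 3744 bp that began 270 bp inside the gene. Because this broad peak and one of 2996 bp in high fat 600 replicate 1 touch their neighbours, overlap chaining joined 11 peaks into 1 region of 6195 bp.

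**Figure D2:**
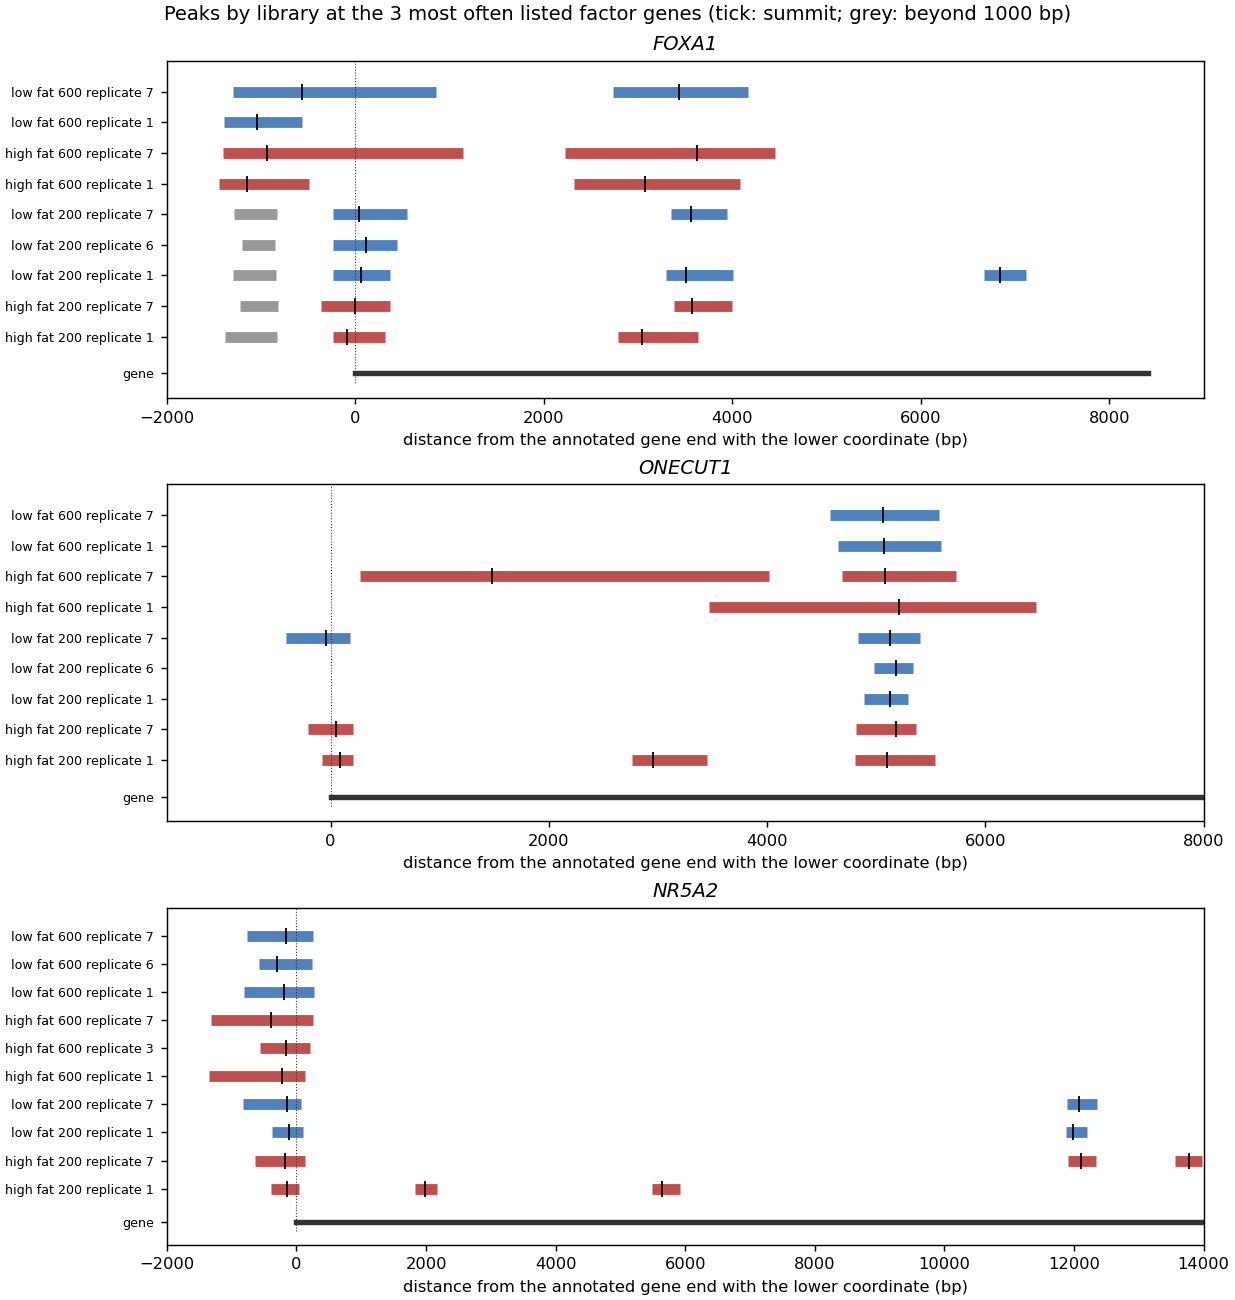
Peaks in each listing library (rows) at FOXA1, ONECUT1 and NR5A2, as bars along the distance in bp from the gene end with the lower coordinate (red high fat, blue low fat, tick for the summit, grey for peaks beyond 1000 bp). Peaks of the 600 set are broader and join the 2 FOXA1 sites in replicate 7, while the strongest inside peak of ONECUT1 in each of 9 libraries has its summit at 5064 to 5210 bp.

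PROX1, which can repress both HNF4A and NR5A2 activity, was listed in 3 libraries, all high fat: 200 replicates 1 and 7 and 600 replicate 7. Among 1309 protein-coding genes in 3 libraries, 97 others were listed in exactly these. The 7 PROX1 peaks fell on 5 sites of the gene (chromosome 9, 129527704 to 129583693), 3 of them in 1 library each. A peak across the upper end (129582913 to 129584129) had a −log10 p of 4.32 in high fat 200 replicate 1 and 4.3 in high fat 600 replicate 7. A nearby inside site (129580768 to 129581390) had 4.32 and 4.37 in high fat 200 replicates 1 and 7. Both also lie within an overlapping protein-coding gene model, LOC106507881, so they cannot be assigned to PROX1 alone. The weakest peak of the 9 genes, at −log10 p 3.01, was a PROX1 site of high fat 600 replicate 7.

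**Figure D3:**
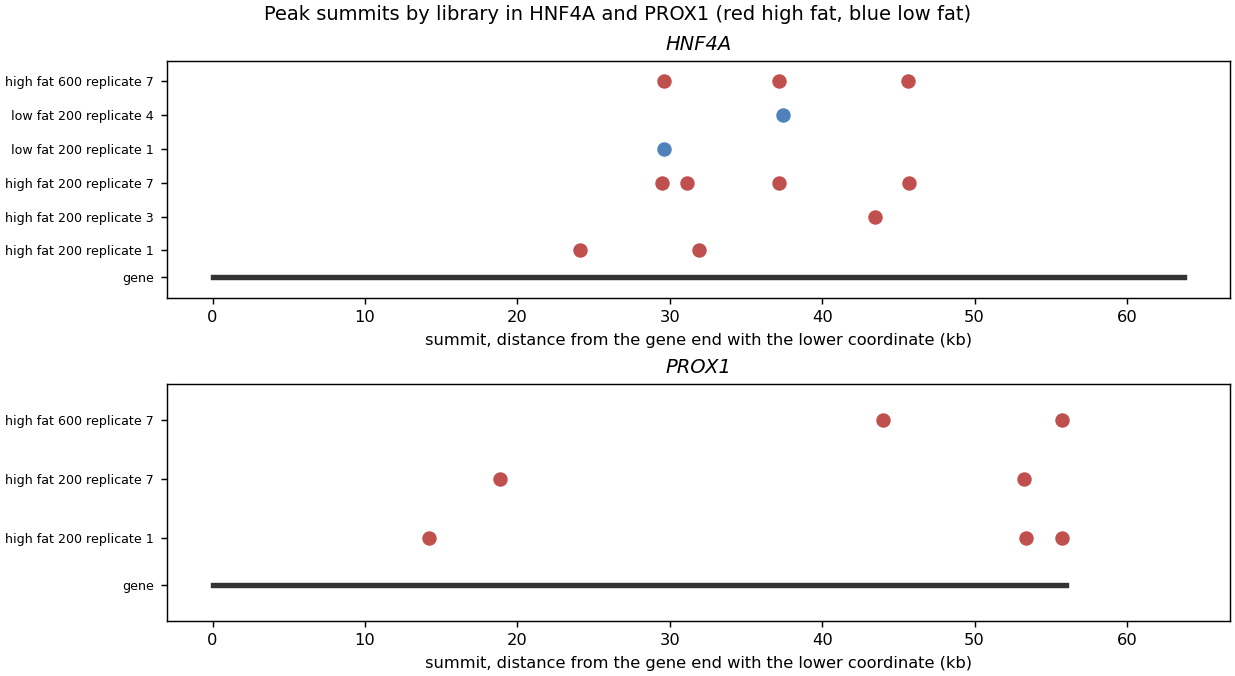
Peak summits in HNF4A and PROX1 (x, distance in kb from the gene end with the lower coordinate) for each listing library (rows; red high fat, blue low fat). HNF4A summits lie in the middle of the gene, away from both ends, and PROX1 is listed in 3 high fat libraries.

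The C/EBP genes are short, so that the 1000 bp rule places every possible peak of CEBPB, and most of those of CEBPA, near an end. CEBPA (chromosome 6, 43083200 to 43085884), the factor of metabolic maturation, had a peak across its upper end (43085566 to 43086284) in 3 libraries, with a −log10 p of 4.32 and 4.37 in high fat 200 replicates 1 and 7 and 4.48 in low fat 200 replicate 1. These values lay close together, and the summits within 53 bp of each other. The noncoding RNA gene LOC102160718 spans 43086118 to 43089178 and overlaps this site. High fat 200 replicate 4 had instead a peak below the lower end (43082388 to 43082780, −log10 p 4.12). No 600 library listed CEBPA.

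CEBPB (chromosome 17, 51722633 to 51723673), a factor induced in the acute phase and in regeneration, had 1 site at its lower end, from 51721645 to 51723114. The −log10 p was 4.62 and 4.37 in high fat 200 replicates 1 and 7, 3.56 in low fat 200 replicate 4 and 3.98 in high fat 600 replicate 7. Low fat 200 replicate 4 was the weakest of the 4 and, at 1067 bp, the widest of the 200 set there. The summits spread over 435 bp, a wider range than in 88.1% of the 1317 regions listed in 4 libraries.

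High and low fat libraries, the question in the title of the study, did not differ detectably in the listing of any factor gene. In the 200 set HNF4A was listed in 3 high and 2 low fat libraries of 7 each, CEBPA in 3 and 1, CEBPB in 2 and 1, NR5A2 in 2 and 2, and FOXA1 and ONECUT1 in 2 and 3 each. FOXA2 and PROX1 (2 and 0) and FOXA3 (0 and 1) were in fewer than 3 libraries and were not tested. Of the 6 tested genes 0 passed (Fisher's exact test, two-sided, Benjamini-Hochberg adjustment over 7792 genes, adjusted p = 1 for each), and the smallest unadjusted exact p was 0.559, for CEBPA. Over all 7792 genes 0% passed, and 0.0513% had an unadjusted p under the same limit of 0.05. With 7 against 7 libraries the smallest p is 0.000583, and 5 against 0 gives 0.021, whereas 4 against 0 gives 0.0699.

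In the 600 set the counts of high and low fat were equal for the 3 tested genes, 2 and 2 for FOXA1 and ONECUT1 and 3 and 3 for NR5A2. HNF4A, CEBPB and PROX1 were listed in high fat replicate 7 alone. The exact adjusted p was 1 for each of the 3, and 0% of 3735 genes passed, with 0% also at the unadjusted limit. When a gene was counted once for a 200 and a 600 library of the same fat group and number, NR5A2 had 3 high and 3 low, and the other tested counts were as in the 200 set. Here 0 of 6 passed (Fisher's exact test, adjusted p = 1), against 0% of 8164 genes, 0.0735% of which were under the unadjusted limit. The difference of the fat effect between the 200 and 600 sets was tested for 7 of the 9 genes by exact permutation of the fat groups, and 0 passed (adjusted p = 1), against 0% of 8608 genes and 0.128% unadjusted.

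At the lower ends of FOXA1 and NR5A2 the listed high fat 200 values lay above the low fat 200 ones, and so did those of many other regions, while at the inside site of FOXA1 they overlapped. For the 4198 regions listed in replicates 1 and 7 of both fat groups, both high fat values exceeded both low fat values in 48.8%, and the reverse held in 1.69%. For the 2692 regions that low fat 200 replicate 6 also listed, the shares were 49.6% and 0.371%. High fat 200 replicates 1 and 7 have 17652 and 11943 peaks, the low fat replicates 1, 6 and 7 have 8221, 4208 and 6691, and the part of yield in these values was not tested.

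In the 600 libraries 6 of the 9 factor genes were listed, against 9 in the 200 libraries, and no tested gene passed the threshold. Of all 19484 protein-coding genes, 6470 were listed in a 600 library and 11797 in a 200 library. CEBPA was in 0 libraries of the 600 set and 4 of the 200 set, FOXA2 in 0 and 2, and FOXA3 in 0 and 1. In the library names of the deposited table all 200 libraries carry one lane tag and all 600 libraries another, so label and lane cannot be told apart. Of 7 tested factor genes, NR5A2 was in more 600 than 200 libraries (6 against 4 of 14, exact p = 0.695, adjusted p = 1) and the other 6 in fewer. The widest gaps were those of CEBPA (Fisher's exact test, p = 0.0978, adjusted p = 0.743), and HNF4A, in 1 against 5 (p = 0.165, adjusted p = 0.743, same test). FOXA1 and ONECUT1 stood at 4 against 5 each (exact adjusted p = 1). None of the 7 passed, against 0% of 8608 genes, of which 4.97% were under the unadjusted limit. Over all tested genes 445 were in more 600 and 7397 in more 200 libraries.

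Of the 10 factor sites listed in at least 3 libraries, 10 could be tested as single regions and 0 passed (smallest exact p = 0.222, adjusted p = 0.772, Fisher's exact test), against 0.489% of 8592 regions, or 4.5% at the unadjusted limit. The sites with that value were the CEBPA upper end, the ONECUT1 lower end and the inner NR5A2 site at 22739737, each in 3 libraries of the 200 set and 0 of the 600 set. For fat, region tests passed for 0 of the 8 factor sites tested in the 200 set and 0 of the 4 in the 600 set (exact adjusted p = 1), against 0% of 7342 and 0% of 3398 regions. At the unadjusted limit there were 0 factor sites, with 0.0136% and 0% over all regions.

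Peaks of the 600 set were broader and had lower significance at every factor site that could be compared. The labels do not say whether a 200 and a 600 library of the same fat group and number come from one animal. Such libraries had overlapping peaks at the factor genes in 17 cases, from 4 such pairs of libraries and 5 genes. The 600 peak was wider in 17 of 17, with ratios from 1.03 to 4.04 and a median of 2.2, and its −log10 p was lower in 17 of 17, with differences from −2.02 to −0.32. At the end of NR5A2 widths went from 425 to 1476 bp in high fat replicate 1, from 765 to 1574 in high fat replicate 7, from 493 to 1085 in low fat replicate 1 and from 897 to 1022 in low fat replicate 7. Over all 16875 overlapping peaks of these 4 pairs, 92.1% were wider and 92.2% lower in the 600 library, with a median width ratio of 1.59. The cases share 4 pairs of libraries and are given as a description.

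**Figure D4:**
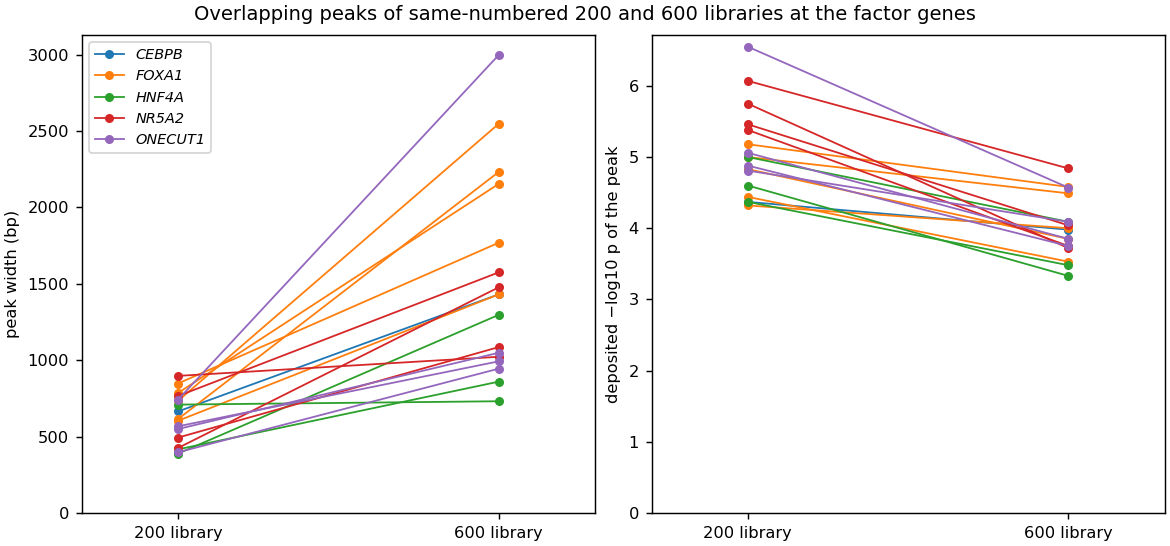
Overlapping peaks of a 200 and a 600 library of the same fat group and number at 5 factor genes (17 pairs of peaks, lines coloured by gene). Left, peak width in bp; right, deposited −log10 p; each of the 17 lines rises in width and falls in −log10 p from the 200 to the 600 library.

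FOXA1 and ONECUT1 were listed in exactly the same 9 libraries, and each shared them with 169 other protein-coding genes (one being its partner here) among 559 with 9 libraries, so other genes have that pattern too. The first by name among those with a symbol were ADGRL2, ADK and ALDH9A1, with a Jaccard index (shared over all listing libraries) of 1 over 28 libraries. In low fat 600 replicate 1 the only FOXA1 peak had its centre 980 bp below the lower end (−log10 p 3.37). With a window of 500 bp FOXA1 was in 1 low fat 600 library and ONECUT1 in 2, so their libraries no longer matched. NR5A2 shared its 10 libraries with CLHC1, MTAP and RPS27A and 2 more protein-coding genes (Jaccard index 1), and HNF4A its 6 with CRY1, DZANK1, FAM222A and 1 more. The 4 libraries of CEBPA were shared in full by 5 other protein-coding genes and those of CEBPB by 2, of 1026 genes in 4 libraries each. Within the 9 genes, FOXA1 and NR5A2 shared 8 of 11 libraries and HNF4A and CEBPB 4 of 6.

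Other gene lists are set beside the 9 factors as counts, with no test between lists. Among 17 other liver factors, 16 were listed (94.1%) and 13 in at least 3 libraries (76.5%), with a median of 6 libraries. ZBTB20, a repressor active in liver, was in 23 libraries, NFIA in 11, and NFIB and TEF in 10 each. Of 19 matched hepatocyte target genes 18 were listed (94.7%) and 14 in at least 3 libraries (73.7%), led by AMBP and HPX in 12 each, TTR in 8 and ALB in 7. OTC had no peak. All 8 listed hepatocyte markers also belong to the target list, so the marker and target counts overlap.

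Paralogs of the 9 factors were listed for 6 of 9 genes (66.7%), 5 of them in at least 3 libraries (55.6%). HNF4G was in 12 libraries and CEBPD, an acute-phase C/EBP gene, in 11, more than HNF4A and CEBPA, while DDIT3 and ONECUT2 were in 7 each. CEBPE, ONECUT3 and PROX2 had none. Of 19 matched master factors of other lineages 13 were listed (68.4%) but 4 in at least 3 libraries (21.1%), with a median of 1. Those were PAX5 in 8, GATA3 and RUNX2 in 5 each and EBF1 in 3, and MYOD1, NEUROD1, PDX1, CDX2, POU5F1 and TBX21 had none. These shares are descriptions beside 61.6% and 39% over all protein-coding genes and 68.9% and 44.2% over those with a symbol. Genes within a list differ in length.

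**Figure D5:**
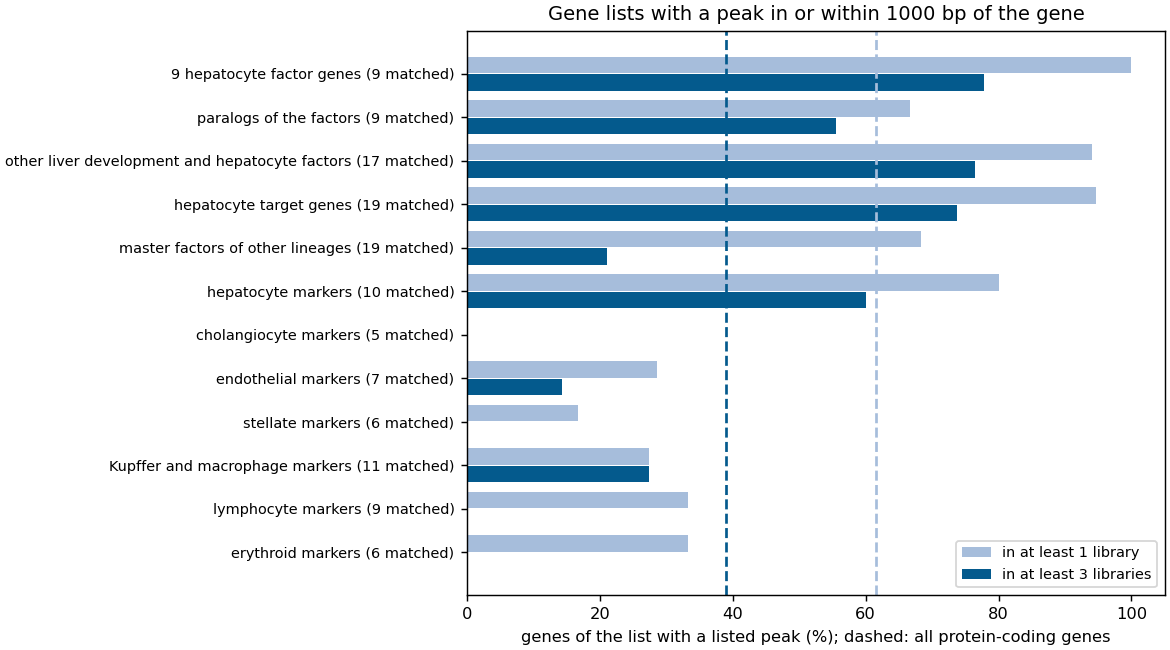
Share of each gene list (%) with a listed peak in or within 1000 bp of the gene, in at least 1 library (light) and in at least 3 (dark); dashed lines give all protein-coding genes, 61.6% and 39%. The 9 factors (100% and 77.8%), other liver factors and hepatocyte targets lie above both lines. So do hepatocyte markers (80% and 60%) and paralogs of the factors (66.7% and 55.6%). Master factors of other lineages (68.4% and 21.1%) lie above the 61.6% line only, and markers of other liver and blood cells lie below both lines. Over protein-coding genes with a symbol the shares are 68.9% and 44.2%.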

How the data were processed

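The authors deposited 1 peak list per library, with no read counts. Per the submitters' processing notes, FastQC, BWA, SAMtools, Picard and Genrich were used with build Sscrofa11.1; versions, roles and the rule by which peaks were kept are not given in the sources used here. The deposited signal is the peak's area, and the deposited score equals 1000 times the signal over the width, capped. That relation held with the width as end minus start (18433 of 18434 uncapped peaks) and not with 1 bp more (987), so starts were raised by 1 bp to count from 1. The deposited p-value column holds −log10 p, from the file's values. Depth is unknown, and no interval or floor from counts is given.

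A gene was listed in a library that had a peak centre inside it or within 1000 bp of an end. Peaks of the 28 libraries overlapping by 1 bp or more formed regions, also called sites. Genes or regions in at least 3 of the libraries compared were tested by Fisher's exact test, two-sided, with Benjamini-Hochberg adjustment over all of them and a threshold of 0.05; scripts were tested on simulated data. The percentile of a peak is that of its −log10 p among its library's peaks. Percentages given beside member counts are over all genes or regions tested.

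The 9 genes and all gene lists were chosen with earlier results of these data known. Named from each list were the up to 4 genes in most libraries (ties in alphabetical order) and, where needed, those with no peak, and by likeness the 3 with the highest Jaccard index. KRT7, G6PC1 and PAX8 matched no protein-coding gene and were left out. Sequence, strand and exons were not used here. Alternatives were windows of 500 bp, 5000 bp and none, other ways to locate a peak, stronger peaks only, no minimum of libraries, an overlap of 50%, a replicate block and each library left out; libraries with at least 1000 peaks were chosen after seeing the data. Computing used Python 3.11.15 and its libraries scipy 1.17.1, pandas 2.3.3 and numpy 2.4.6, and figures were drawn with matplotlib 3.10.9.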

Additional observations from a re-analysis of the deposited data

Results flagged for a closer look

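At the inside site of ONECUT1, high fat 200 replicate 1 had a −log10 p of 6.55, far from the 4.52 to 5.06 of the other 4 libraries of the 200 set that listed it. When the strongest peak of each library was taken there, that of high fat 600 replicate 1 was 2996 bp wide, against 944 to 1048 bp in the other 3 libraries of the 600 set. High fat 600 replicate 7 also had a weaker peak of 3744 bp at this site. Of 22 sets of values examined in this way 2 stood out, and chance alone gives about 1 in 20.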

How the results depend on the processing

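The count of genes passing for fat stayed 0 in the 200 set, the 600 set, both together and the difference between them under every alternative run, with 0 to 0 when each library or pair was left out; for regions it stayed 0 for fat in both sets as well. For 600 against 200, genes went from 0 to 3 with a window of 5000 bp and ranged from 0 to 0 with each library left out. The 42 regions passing for 600 against 200 ranged from 42 to 49 with each library left out, fell to 0 with the replicate block (exact sign test within same-numbered pairs, smallest adjusted p = 0.131) and to 0 among libraries with at least 1000 peaks (0.107); the cause was not tested. Of 592 values of single factor genes under alternatives, none crossed the threshold and 4 changed direction, all for 600 against 200. In percentage points these were NR5A2 with the gene body only (−28.6) and with peaks at or above the label's median (−14.3), and FOXA1 and ONECUT1 among libraries with at least 1000 peaks (11.1 each). A difference of 0 in the main setting could not be counted as changed in direction. For fat in the 600 set FOXA1 moved from 0 to 14.3 at 500 bp and to −14.3 at 5000 bp. NR5A2 moved there from 0 to −28.6 at 500 bp, with 1 high and 3 low fat libraries. ONECUT1 moved from 0 to 14.3 with peaks at or above their library's median. HNF4A was in 3 libraries with peaks at or above their library's median and in 2 with those at or above the label's. NR5A2 was in 4 and CEBPA and CEBPB in 0 with the gene body only. Same-numbered 200 and 600 libraries correlated in their listing (deviations from group means) above 0.1 in 9 of 14 pairs, and 9 of 14 matched their own number best. High and low fat libraries of one replicate number correlated above 0.1 in 3 of 7 pairs of the 200 set and 6 of 7 of the 600 set. Their own number was the best match in 4 of 7 and 2 of 7. Replicate numbers follow the order of titles within a fat group, and the labels give no link between fat groups. The numbers of peaks (log10, deviations from group means) correlated with r = 0.971 over the 14 same-numbered 200 and 600 pairs, whose titles also share a running number. The labels do not say that such libraries share an animal, and the correlation of their listing ranged from 0.00815 to 0.66. The numbers were not taken as a pairing in the tests of 600 against 200. They were taken as one in the fat counts over both labels and in the difference of the fat effect. If such libraries do share an animal, the tests of 600 against 200 over 28 libraries count related libraries as independent. The block changed no other call.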

Other observations

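Beyond the 1000 bp rule, FOXA1 had a further recurrent site past its upper end, on chromosome 7 from 62482120 to 62483495. It was listed in 8 libraries, with centres 3013 to 3286 bp beyond the end and a −log10 p from 3.11 to 5.75. Among them were high fat 200 replicate 3 (4.15) and low fat 600 replicate 6 (3.11), neither of which listed FOXA1 itself.

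CEBPB, ONECUT1 and PROX1 also had peaks past the window. Near CEBPB a site with its centre 1886 to 1898 bp below the lower end was listed in high fat 200 replicate 7 (−log10 p 4.81) and in low fat 200 replicate 1 (3.98), a library that did not list CEBPB. ONECUT1 had one 4632 to 4726 bp below its lower end in high fat 200 replicates 1 (4.62) and 7 (3.84), and PROX1 one 1648 bp beyond its upper end in high fat 600 replicate 7 (3.86). FOXA3 had one 3633 bp beyond its upper end in low fat 200 replicate 1 (3.73).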
